A study of Homo sapiens with 20 samples.

Results

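The 10 genes described here are markers of neurites and of the neuronal cytoskeleton: STMN2, GAP43, TUBB3, MAP2, NEFL, NEFM, DCX, ELAVL4, RBFOX3 and UCHL1. They were taken by name from the annotation, all 10 were among the 27697 genes tested, and each is reported whatever its values. The set was chosen with earlier results of these data known. The question was whether markers of neuronal differentiation rise when p53 is activated. The samples were RNA-seq libraries of NGP cells, an established human neuroblastoma cell line, from 10 samples treated with nutlin-3 (8 µM, as a racemic mixture) and 10 treated with ethanol, the vehicle of the drug. The drug occupies the p53 pocket of MDM2, the ubiquitin ligase that holds p53 in check. Both groups were the same line, the labels name no genetic change and no treatment time, and 1 line cannot stand for other neuroblastomas. The study calls the samples biological replicates, without stating how the cultures were separated, so p-values measure the spread between these samples.

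A neuron sends out neurites, which are built around bundles of microtubules and, as they mature, neurofilaments. Microtubules are polymers of tubulin that stathmins destabilise and that doublecortin and MAP2 stabilise, while growth-associated proteins sit under the membrane of the growth cone at the tip. Neuroblastoma arises from the sympathetic lineage, and the outgrowth of neurites with a rise of such markers is a usual sign of its differentiation in culture.

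After nutlin-3, 3 of the 10 markers rose (NEFL, ELAVL4 and RBFOX3), 6 fell (GAP43, TUBB3, MAP2, NEFM, DCX and UCHL1) and STMN2 did not pass the test. A gene is called significantly differentially expressed (SDE) at 5% FDR by the quasi-likelihood test of edgeR with Benjamini-Hochberg adjustment over all genes tested. Over all genes this test called 32.3% higher and 26.5% lower. Among the 12797 mRNAs with a mean of at least 1 CPM (counts scaled to the size of the library), a group that holds all 10 markers and is called the expressed mRNAs here, it called 31.4% higher and 50.6% lower. The split of the markers was near that of the expressed mRNAs, so their count in either direction does not set them apart. The markers that rose gained less than 2-fold, and GAP43 and TUBB3 fell by more than 2-fold, where 8.96% of the expressed mRNAs rose and 9.23% fell by at least that much. No sample of one condition reached the other in 7 markers, higher in 2 (NEFL and ELAVL4) and lower in 5, and this held for 17.7% (higher) and 34.6% (lower) of the expressed mRNAs. The log2 fold change (LFC, nutlin over vehicle) had a median of -0.35 over the 10 markers and of -0.15 over the expressed mRNAs, whose quartiles were -0.54 and 0.31. RNA of a whole culture was measured, in which fewer cells of a type and less RNA per cell cannot be told apart.

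**Figure D1:**
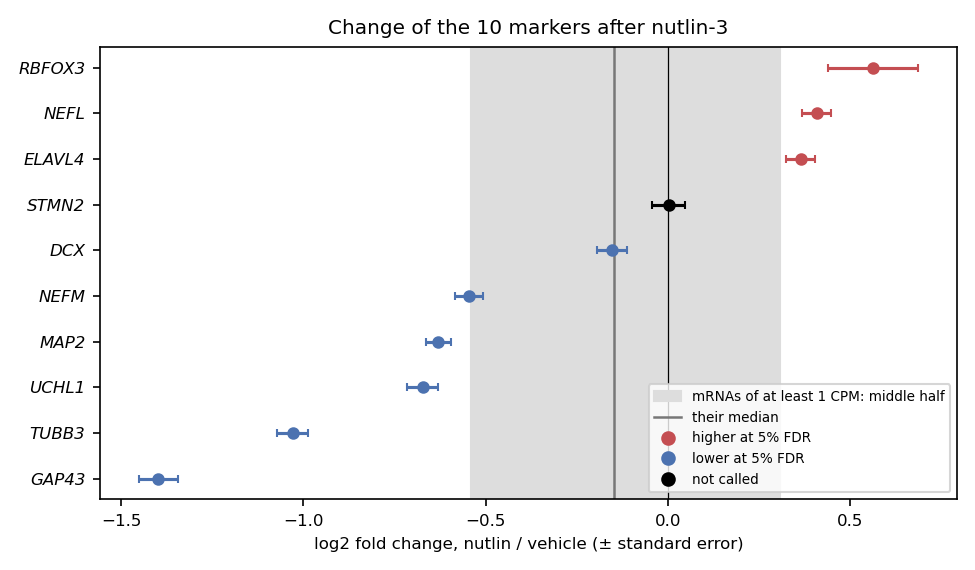
The horizontal axis gives the LFC of each of the 10 markers with its standard error, from edgeR on 10 vehicle and 10 nutlin samples. Points are red where the gene rose, blue where it fell and black where it was not called, and the grey band and line are the quartiles and the median of the 12797 expressed mRNAs. The markers run from GAP43 at -1.40 to RBFOX3 at 0.56, and STMN2 and DCX lie inside the band.

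The samples held 14455477 to 19532971 estimated read pairs. MDM2, itself a target of p53, stood at 245 ± 33.2 CPM (SD, n = 10) in the vehicle and 5564 ± 382 CPM (SD, n = 10) in the nutlin samples, which separates the labels in every sample. Of the adrenergic neuroblastoma markers, HAND2 stood at 1039 ± 61.2 and 882 ± 46.0 CPM, TH at 511 ± 74.2 and 786 ± 79.1 CPM and DBH at 139 ± 8.86 and 136 ± 5.40 CPM (SD, n = 10 vehicle and 10 nutlin samples). All 3 were expressed in both conditions. TH rose with an LFC of 0.62 ± 0.071, HAND2 fell with -0.24 ± 0.038, and DBH was not called. The 5 mesenchymal markers summed to 168 to 201 and to 100 to 129 TPM (counts per length, scaled to a fixed total), nearly all of it TWIST1, while PRRX1 and WWTR1 were at 0.525 and 0.392 CPM in vehicle samples and at 2.08 and 0.743 CPM in nutlin samples. Of these 5, 2 rose, 2 fell and 1 was not called. Of the Schwann cell markers, SOX10 had too few counts to be tested, S100B was at 0.466 and 0.352 CPM and was not called, and ERBB3 rose from 0.463 to 2.39 CPM.

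**Figure D2:**
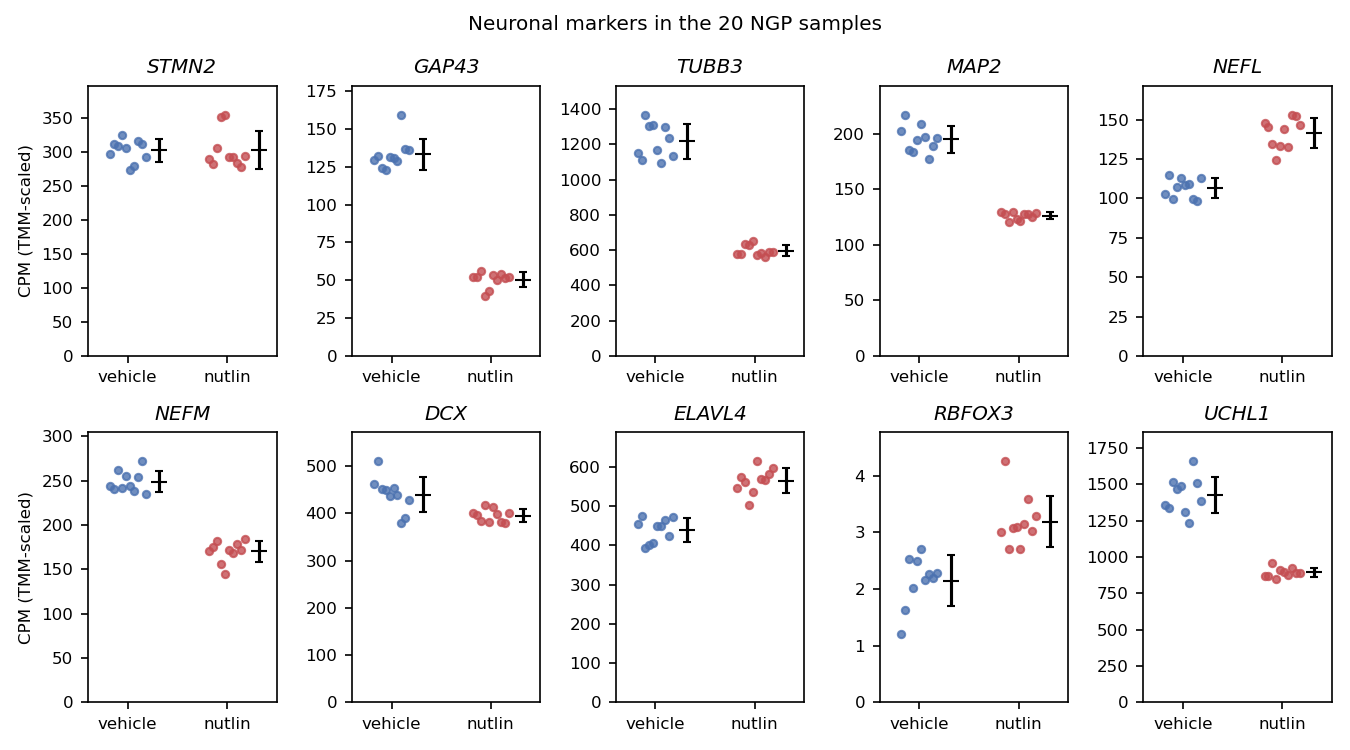
Each panel gives the CPM of 1 marker, scaled by TMM, in the 10 vehicle (blue) and 10 nutlin (red) samples, with the mean and SD in black and an axis that starts at 0. The conditions are apart for GAP43, TUBB3, MAP2, NEFL, NEFM, ELAVL4 and UCHL1, while they overlap for STMN2 and DCX and touch for RBFOX3.

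GAP43 encodes a growth cone protein under the membrane that is bound by calmodulin. It had the largest change among the 10 markers. Its level was 123 CPM at the lowest, 131 at the median and 159 at the highest in the vehicle samples, and 39.7, 51.9 and 56.2 CPM in the nutlin samples. Every nutlin sample lay below every vehicle sample, and the highest vehicle value, of replicate 10, was apart from the next at 137 CPM. The LFC was -1.40 ± 0.053, with an adjusted p of 6.5e-20 by edgeR. Of the expressed mRNAs, 4.52% had a lower LFC. The gene lies on chromosome 3, from 115623510 to 115721490 (GRCh38, plus strand), and 99.8% of its counts in vehicle samples were assigned to GAP43-201, a transcript of 238 codons.

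TUBB3 encodes the beta-tubulin class that is used as a marker of neurons. Its lowest, median and highest values were 1093, 1201 and 1367 CPM in the vehicle samples and 560, 587 and 651 CPM in the nutlin samples. The conditions did not overlap. The LFC was -1.03 ± 0.043, with an adjusted p of 5.9e-19 by edgeR, and 8.65% of the expressed mRNAs had a lower LFC. This LFC is close to -1, and in several alternative fits it was smaller than 2-fold. A readthrough gene and an antisense lncRNA overlap TUBB3 on chromosome 16 (89921392 to 89938761, GRCh38, plus strand), with means of 12.8 and 13.8 counts in vehicle samples against 18506 for TUBB3.

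Sequences before the start sites of the markers that fell by more than 2-fold are given because they show how different these promoters are. They come from RefSeq (GRCh38.p14), whose table held windows for 7 of the 10 markers, GAP43, TUBB3, MAP2, DCX, ELAVL4, RBFOX3 and UCHL1, and none for STMN2, NEFL and NEFM. The motifs searched on both strands were CACGTG, the E-box of MYC proteins, CANNTG, the general E-box that contains it, TTTGAA, the core of the cell cycle genes homology region, TATAAA, the usual TATA box, GGGCGG, the GC box, and the p53 half-site. Capitals mark the matches, sequences are written 5′ to 3′ on the strand of the gene, and the bases are those before the start that no annotated exon covers.
GAP43-201, chr3:115623260-115623509, plus strand: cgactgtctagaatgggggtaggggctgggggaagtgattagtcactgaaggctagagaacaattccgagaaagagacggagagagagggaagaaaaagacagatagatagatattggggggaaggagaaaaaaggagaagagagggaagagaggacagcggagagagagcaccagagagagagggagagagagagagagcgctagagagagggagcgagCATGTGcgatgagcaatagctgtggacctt
TUBB3-201, chr16:89923092-89923337, plus strand: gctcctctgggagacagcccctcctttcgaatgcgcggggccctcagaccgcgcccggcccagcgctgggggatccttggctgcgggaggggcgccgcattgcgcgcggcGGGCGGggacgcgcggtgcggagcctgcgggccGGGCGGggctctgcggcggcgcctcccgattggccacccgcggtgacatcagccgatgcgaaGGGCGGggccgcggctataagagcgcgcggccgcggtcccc
The 250 bases before GAP43 had a GC content of 51.6% and hold 1 match, to CANNTG. Those before TUBB3 had a GC content of 78% and 3 GC boxes. Over all 35116 windows of 250 bases, 61.8% held CANNTG, 42.6% GGGCGG, 13.3% TTTGAA, 10.7% TATAAA, 6.34% CACGTG and 5.57% the p53 half-site. A match is a description of these letters and says nothing of binding.

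UCHL1 encodes a ubiquitin hydrolase that is very abundant in neurons. It was the most abundant marker. Its lowest, median and highest values were 1236, 1426 and 1657 CPM in the vehicle samples and 846, 891 and 960 CPM in the nutlin samples. Every nutlin sample lay below every vehicle sample. The LFC was -0.67 ± 0.042, with an adjusted p of 1.2e-14 by edgeR. The spread among vehicle samples, with a coefficient of variation of 8.66%, was larger than the 3.58% among nutlin samples. UCHL1-DT, a divergent lncRNA on the other strand, rose with an LFC of 1.58 ± 0.39 from a mean of 2.39 to one of 7.53 counts.

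MAP2 encodes a microtubule-associated protein of dendrites. Vehicle samples ran from 177 through a median of 195 to 217 CPM, and nutlin samples from 121 through 128 to 129 CPM. The conditions did not overlap, and the coefficient of variation was 6.22% among vehicle and 2.53% among nutlin samples. The LFC was -0.63 ± 0.034, with an adjusted p of 3.4e-16 by edgeR. With an offset for the effective length of its transcripts the LFC was -0.44.

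DCX encodes doublecortin, which binds microtubules in young migrating neurons. Its values were 379, 444 and 510 CPM (lowest, median and highest) in the vehicle samples and 379, 398 and 418 CPM in the nutlin samples. The conditions overlapped, since vehicle replicates 10 and 11 lay among the nutlin samples. The LFC was -0.15 ± 0.041 (adjusted p = 0.0017 by edgeR), which is -0.0049 from the median of the expressed mRNAs. The call was lost with a stricter filter on low counts, with the length offset, on TPM, and with coding transcripts only, where the LFC was 0.0033 ± 0.043 (adjusted p = 0.95 by edgeR).

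STMN2 encodes a stathmin of growing axons. Vehicle samples ran from 273 through a median of 307 to 325 CPM and nutlin samples from 278 through 292 to 354 CPM. The means were 302 ± 16.5 and 302 ± 27.7 CPM (SD, n = 10 each). The LFC was 0.0019 ± 0.045 (adjusted p = 0.99 by edgeR), so a change larger than the spread was not found with all transcripts of the gene. With coding transcripts only STMN2 was called higher, at 0.16 ± 0.044 (adjusted p = 0.0022 by edgeR). In that fit the median LFC of the expressed mRNAs was also higher, at -0.03 in place of -0.15. STMN2-201, a coding transcript with 93.1% of the counts in vehicle samples, was not called in the transcript fit (-0.04 ± 0.047, adjusted p = 0.62 by edgeR). Relative to the median of the expressed mRNAs, STMN2 with all transcripts stood at 0.15. Only the nutlin samples 4 and 6, at 352 and 354 CPM, were above all vehicle samples.

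The neurofilament subunits went in opposite directions. NEFL, the light subunit that the others assemble with, ran from 98.4 through 108 to 115 CPM (lowest, median and highest) in the vehicle samples and from 124 through 145 to 153 CPM in the nutlin samples. The conditions did not overlap and the LFC was 0.41 ± 0.040 (adjusted p = 3.5e-10 by edgeR). NEFM, the medium subunit, ran from 234 through 244 to 272 CPM and from 145 through 172 to 185 CPM. These did not overlap either, and the LFC was -0.55 ± 0.039 (adjusted p = 2.7e-13 by edgeR). NEFH, the heavy subunit and not one of the 10 markers, was at 416 ± 19.9 and 435 ± 18.1 CPM (SD, n = 10 each) with an LFC of 0.07 ± 0.033 (adjusted p = 0.080), which passed the threshold in the other fits of its list. An antisense lncRNA that overlaps NEFM had means of 138 and 118 counts against 3777 and 2663 for NEFM.

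ELAVL4 encodes HuD, an RNA-binding protein of neurons that stabilises mRNAs such as that of GAP43. In the vehicle samples its lowest, median and highest values were 393, 449 and 474 CPM, and in the nutlin samples 503, 568 and 613 CPM. Each nutlin sample was above each vehicle sample. The LFC was 0.36 ± 0.040, with an adjusted p of 3.8e-09 by edgeR. Between the conditions ELAVL4 thus rose and GAP43 fell. Within the conditions, their deviations from the condition mean had a Pearson correlation of 0.62 (0.52 in vehicle and 0.76 in nutlin samples). A link between ELAVL4 and GAP43 was not tested. The antisense lncRNA ELAVL4-AS1 rose with an LFC of 1.60 ± 0.34 from a mean of 3.3 to one of 10.5 counts.

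RBFOX3 encodes NeuN, a splicing factor used as a marker of mature neurons. It was barely expressed, with 18 to 47 counts in a vehicle sample and 41 to 66 in a nutlin sample. The values were 1.21, 2.23 and 2.71 CPM (lowest, median and highest) in the vehicle samples and 2.70, 3.08 and 4.25 CPM in the nutlin samples. The highest vehicle sample was just above the lowest nutlin sample, and vehicle replicate 3 was the lowest of all. The LFC was 0.56 ± 0.12, with an adjusted p of 0.00022 by edgeR, the largest rise and the largest error among the markers. The length offset gave 1.46, so that the size of its rise depends on how transcript length is treated.

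Per length, UCHL1 stood first, at 1789 ± 59.8 TPM (SD, n = 10) in the vehicle samples and 1076 ± 42.6 TPM (SD, n = 10) in the nutlin samples. The order in the vehicle samples was then TUBB3 at 816 TPM, ELAVL4 at 235, STMN2 at 192, NEFM at 99.8, GAP43 at 90.4, DCX at 55.7, MAP2 at 54.3, NEFL at 28.5 and RBFOX3 at 1.45 TPM. Neighbours whose samples overlapped in that order were NEFM with GAP43, and DCX with MAP2. In the nutlin samples GAP43 had gone from the sixth to the ninth place, at 33.8 TPM. The order there was UCHL1, TUBB3 at 402 TPM, ELAVL4 at 337, STMN2 at 203, NEFM at 66.8, DCX at 54.8, MAP2 at 39.9, NEFL at 38.2, GAP43 and RBFOX3 at 3.75 TPM. The samples of TUBB3 and ELAVL4, NEFM and DCX, MAP2 and NEFL, and NEFL and GAP43 overlapped. The 10 markers summed to 3362 TPM in the vehicle and 2255 TPM in the nutlin samples, on average, and UCHL1 and TUBB3 made up most of the sum in both.

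Nutlin samples 4 and 6 stood apart from the other 8 nutlin samples in 4 of the markers. For STMN2 they were at 352 and 354 CPM, against 278 to 305 CPM in the others. For GAP43 they were at 39.7 and 43.1 CPM against 50.2 to 56.2 CPM. NEFM was at 156 and 145 CPM in them against 168 to 185 CPM, and ELAVL4 at 503 and 534 CPM against 546 to 613 CPM. They were thus above the others in 1 marker and below in 3, while over the expressed mRNAs both were above the other 8 in 9.43% and both below in 8.46%. The proliferation gene MKI67 was at 87.3 and 68.7 CPM in them, within the 62.8 to 95.2 CPM of the others, and MDM2 at 4797 and 5224 CPM against 5190 to 6005 CPM. Without them, a fit that was added once these values had been seen, the LFC was -0.05 ± 0.034 for STMN2 (adjusted p = 0.26), -1.32 ± 0.042 for GAP43, -0.49 ± 0.033 for NEFM and 0.41 ± 0.039 for ELAVL4, and the calls of all 10 markers were as before.

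**Figure D3:**
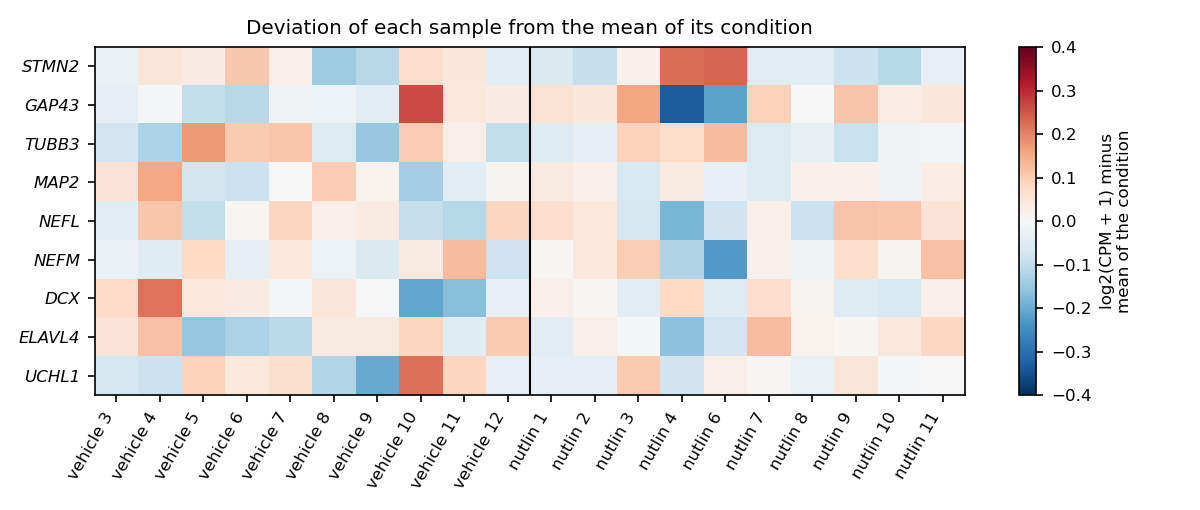
Colours give, for 9 markers in rows and the 20 samples in columns, log2(CPM + 1) minus the mean of that marker over its condition, with red above and blue below, and RBFOX3 left out for its low counts. Nutlin samples 4 and 6 are red in STMN2 and blue in GAP43, NEFM and ELAVL4, and vehicle sample 10 is red in GAP43 and UCHL1 and blue in MAP2 and DCX.

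Within the conditions the markers did not move as one group. Over the deviations of the 20 samples from the mean of their condition, the Pearson correlation was 0.70 for TUBB3 with UCHL1 (Spearman 0.70) and -0.77 for MAP2 with UCHL1 (Spearman -0.82), the pairs furthest from 0 in each direction. Without the 2 samples most extreme in the first gene they were 0.70 and -0.70. For TUBB3 with UCHL1 the correlation was 0.84 in the vehicle samples alone and 0.20 in the nutlin samples alone. For MAP2 with UCHL1 it was -0.78 and -0.72. These describe libraries that share their scaling and are given without a test. Vehicle replicate 10 was the lowest vehicle sample in MAP2 and DCX and the highest in GAP43 and UCHL1.

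The expressed mRNAs whose profile over the 20 samples was most like that of GAP43 were ZWINT, a kinetochore protein (Pearson r = 0.995 on log2(CPM + 1)), CDC6, which loads the replicative helicase (r = 0.994), and FBXO5, an inhibitor of the anaphase-promoting complex (r = 0.993). Their LFCs were -1.63 ± 0.049, -2.89 ± 0.063 and -2.07 ± 0.052. Such likeness was common, since 26.9% of the 12796 other expressed mRNAs had r above 0.9 with GAP43, and the samples share their 2 conditions.

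The files give values per transcript, and 21 transcripts that held at least 10% of the counts of their marker in either condition are described. Of these 6 rose, 10 fell and 5 were not called, where the same test called 12.2% higher and 10.4% lower over 128634 transcripts. Transcript usage asks whether a transcript took another share of its gene. It was called for 4 of the 21, 2 of them higher and 2 lower, and over all 109443 transcripts for 2.45% in the higher and 1.1% in the lower direction. Both larger sets take in transcripts with a total of only 1 count in each condition. They are not matched to the 21 in depth, so these shares do not set the 21 apart. How surely kallisto split reads between similar transcripts is not given in these values.

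For ELAVL4 the usage of 2 of the 4 described transcripts differed between the conditions. ELAVL4-201, of 402 codons, held 10.7% ± 2.36 of the counts of ELAVL4 (SD, n = 10) in the vehicle and 16.6% ± 2.72 (SD, n = 10) in the nutlin samples. Its counts rose with an LFC of 0.99 ± 0.10, and its usage was called higher (adjusted p = 0.0045 by the diffSpliceDGE test of edgeR). ELAVL4-205, of 366 codons, held 21.6% ± 4.09 and 14.2% ± 2.94. Its counts were not called, with an LFC of -0.25 ± 0.14, while its usage was called lower (adjusted p = 0.0046 by the same test). ELAVL4-206 and ELAVL4-204, with 33.4% and 9.77% of the counts in vehicle samples, rose with LFCs of 0.45 ± 0.069 and 0.51 ± 0.091, with no call of usage. ELAVL4-204 starts 46 bases from ELAVL4-205, so that transcripts of 1 start region differed in their usage calls, and usage per start site was not tested. The RefSeq sequences before the starts of the 2 transcripts with a usage call are given because these start at different places.
ELAVL4-201, chr1:50105981-50106230, plus strand: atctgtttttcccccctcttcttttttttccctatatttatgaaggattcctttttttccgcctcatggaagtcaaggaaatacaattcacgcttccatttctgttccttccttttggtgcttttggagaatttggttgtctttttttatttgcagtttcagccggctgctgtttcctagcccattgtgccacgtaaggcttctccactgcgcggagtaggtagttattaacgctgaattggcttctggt
ELAVL4-205, chr1:50108670-50108855, plus strand: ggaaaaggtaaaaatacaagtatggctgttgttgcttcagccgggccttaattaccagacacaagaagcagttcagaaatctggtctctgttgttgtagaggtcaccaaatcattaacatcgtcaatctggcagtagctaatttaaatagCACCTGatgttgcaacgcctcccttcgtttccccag
The second stretch held CANNTG once, in capitals, and no other match to the motifs was found in either. The RefSeq start was 34 bases from that of ELAVL4-201 in the annotation and at the same base for ELAVL4-205.

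For UCHL1 the retained-intron transcripts did not move together. UCHL1-202, annotated as a retained intron with no coding sequence, held 8.57% ± 1.18 of the counts of UCHL1 without and 18.1% ± 2.44 with nutlin-3 (SD, n = 10 each), with 5.88 to 9.58% and 14.1 to 22.1%. It was the only described UCHL1 transcript whose counts rose, with an LFC of 0.40 ± 0.091, and its usage was higher by 1.08 on the log2 scale (adjusted p = 1.2e-10 by the diffSpliceDGE test of edgeR). UCHL1-201, which codes for 223 residues, fell with an LFC of -1.11 ± 0.082, from 29.1% ± 2.05 to 21.7% ± 3.14 of the counts, and its usage was called lower (adjusted p = 0.048 by the same test). UCHL1-211, the retained-intron transcript with the most counts, fell with an LFC of -0.78 ± 0.065, from 36.4% ± 1.43 to 33.9% ± 3.33 of the counts, and its usage was not called. Together the 4 retained-intron transcripts of UCHL1 held 46.6% ± 1.01 and 54.3% ± 2.28 of its counts, without overlap of the conditions. Restricted to coding transcripts, UCHL1 fell more, with an LFC of -0.78. UCHL1-201 starts at the base after a RefSeq window on chromosome 4 and UCHL1-202 starts 20 bases before that, so the exon-free stretch of the window next to both starts is given.
UCHL1, chr4:41256804-41256907, plus strand: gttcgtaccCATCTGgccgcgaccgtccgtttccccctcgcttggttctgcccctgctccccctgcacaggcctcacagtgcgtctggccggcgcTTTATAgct
It holds 1 match to CANNTG and 1 to TATAAA on the reverse strand.

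The long and short mRNAs of MAP2 differed in their counts. MAP2-205, which codes for 471 residues and lacks the central part of the long form, held 64.7% ± 4.38 of the counts of MAP2 without and 46.0% ± 3.11 with nutlin-3 (SD, n = 10 each). It fell with an LFC of -1.13 ± 0.058 (adjusted p = 5.8e-13 by edgeR). MAP2-202, which codes for 1827 residues, held 23.2% ± 3.87 and 33.5% ± 5.20, and its LFC was -0.10 ± 0.097 (adjusted p = 0.54 by edgeR). The usage of either was not called, with adjusted p of 0.090 and 0.098 by the diffSpliceDGE test. For MAP2-205 the shares of the conditions did not overlap (57.7 to 70.6% and 41.7 to 50.1%), while those of MAP2-202 did. STMN2, GAP43, TUBB3 and NEFL each had 1 described transcript, which held between 90.6% (STMN2-201 in nutlin samples) and 99.9% (NEFL-201 in vehicle samples) of the counts.

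**Figure D4:**
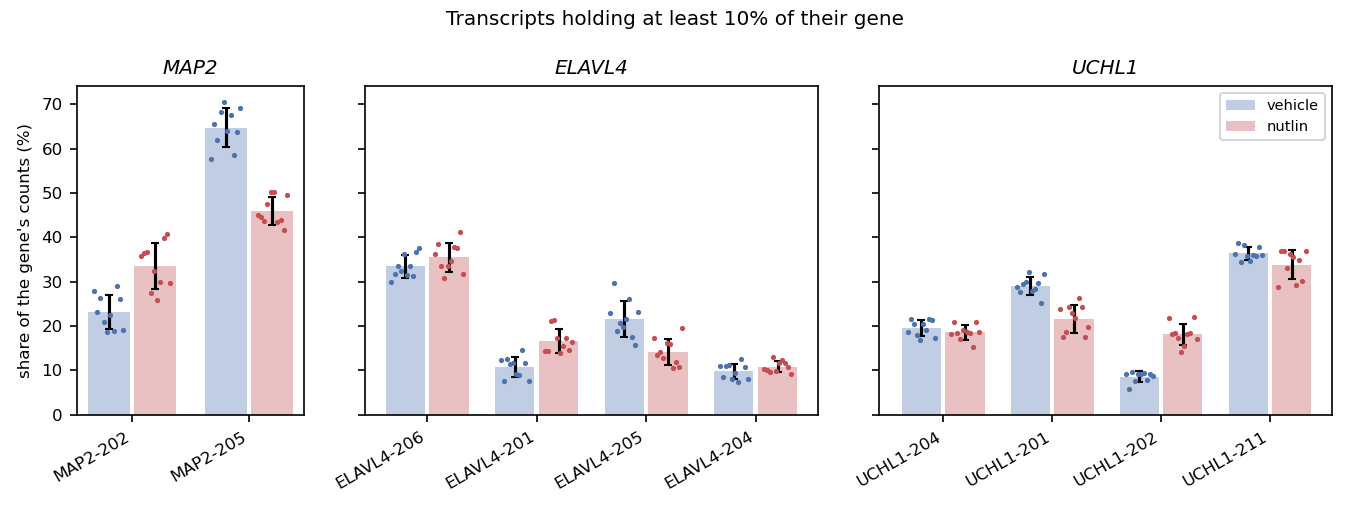
Bars give the mean share, in percent, of the counts of MAP2, ELAVL4 and UCHL1 held by each of their described transcripts in vehicle (blue) and nutlin (red) samples, with points for the samples and error bars for the SD (n = 10). MAP2-205 and ELAVL4-205 have a smaller and UCHL1-202 and ELAVL4-201 a larger share after nutlin-3.

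Related genes were taken from 8 lists by role, which hold 81 genes. Of these 24 rose, 46 fell and 11 were not called, and 5 rose and 11 fell by at least 2-fold, next to the shares of the expressed mRNAs given above.

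Tubulins other than TUBB3 mostly fell, with 8 of 10 lower and 2 higher and a median LFC of -1.18. TUBA1B, an alpha-tubulin of most cells, fell by 2.66 on the log2 scale (SE 0.050), from 4753 ± 393 to 751 ± 53.9 CPM (SD, n = 10 each), and TUBA1C by 1.81 (SE 0.053). TUBB6 rose with an LFC of 1.40 ± 0.039, from 34.6 ± 2.52 to 91.4 ± 2.91 CPM. The LFC of TUBB3 was nearer to 0 than those of TUBA1A, TUBB and TUBB4B, which were at -1.48, -1.65 and -1.69, and it was below those of TUBB2A and TUBB2B at -0.87 and -0.73. Of the 13 microtubule-binding proteins 2 rose, 6 fell and 5 were not called, with a median LFC of -0.13. STMN1, the stathmin of dividing cells, fell with an LFC of -1.83 ± 0.049, from 1782 ± 165 to 502 ± 33.2 CPM, unlike STMN2. MAP4, a microtubule-associated protein of most cells, fell with an LFC of -0.58 ± 0.032, and MAPT, the tau gene, and DCLK1, a kinase related to doublecortin, rose with 0.80 ± 0.12 and 0.57 ± 0.045.

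Of 5 other intermediate filament genes, 1 rose, 3 fell and NEFH was not called. PRPH, the peripherin of peripheral neurons, rose with an LFC of 1.69 ± 0.057, from 90.2 ± 12.8 to 291 ± 9.68 CPM (SD, n = 10 each). That was a larger rise than that of any of the 10 markers. NES, the nestin of progenitors, and VIM, vimentin, fell with LFCs of -0.66 ± 0.038 and -0.57 ± 0.042. Of 12 growth cone and membrane proteins 2 rose, 9 fell and 1 was not called, with a median LFC of -0.50. MARCKS, a substrate of protein kinase C like GAP43, fell with an LFC of -1.35 ± 0.13, and DPYSL2, which binds tubulin, with -1.20 ± 0.035. DPYSL4 and the adhesion molecule L1CAM rose with LFCs of 0.67 ± 0.040 and 0.36 ± 0.047.

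The 10 other RNA-binding proteins held 3 that rose, 6 that fell and 1 not called, with a median LFC of -0.50. RBFOX1, the relative of RBFOX3, rose with an LFC of 1.14 ± 0.034, from 24.9 ± 0.598 to 54.9 ± 2.32 CPM (SD, n = 10 each), at a much higher level than RBFOX3, and RBFOX2 had an LFC of -0.54. ELAVL2 fell with an LFC of -0.57 ± 0.051, and ELAVL1 and ELAVL3 were at -0.55 and -0.52, so ELAVL4 was the member of its family that rose. NOVA2, a neuronal splicing factor, rose with an LFC of 0.51 ± 0.11. PTBP1, which represses neuronal exons, fell with an LFC of -0.93 ± 0.033. The 3 other ubiquitin hydrolases of the UCH family all fell, UCHL5 with an LFC of -0.93 ± 0.041, UCHL3 with -0.78 ± 0.057 and BAP1 with -0.57 ± 0.036, and UCHL1 lay between them.

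Synaptic genes were spread around 0. Of 15 genes 7 rose, 5 fell and 3 were not called, with a median LFC of 0.02 and no change of 2-fold. SYT1, the calcium sensor of vesicle release, and SYN1, a vesicle phosphoprotein, rose with LFCs of 0.48 ± 0.034 and 0.46 ± 0.054, while SV2A, another vesicle protein, and RTN1, a reticulon, fell with -0.86 ± 0.030 and -0.77 ± 0.034. Of 13 regulators of neurogenesis 7 rose and 6 fell, with a median LFC of 0.36. The list holds activators and repressors of the neuronal program, so its counts give no direction for that program. ID3, an inhibitor of basic helix-loop-helix factors, rose with an LFC of 1.38 ± 0.065, and REST, the repressor of neuronal genes, with 1.09 ± 0.22 at 0.718 and 1.54 CPM. NEUROD1 fell with an LFC of -1.15 ± 0.10 and INSM1 with -0.64 ± 0.081.

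The 10 proliferation genes all fell by at least 2-fold, with a median LFC of -2.81. Their summed level was 1244 to 1486 TPM in the vehicle and 188 to 242 TPM in the nutlin samples. CCNB1, the mitotic cyclin, fell with an LFC of -3.06 ± 0.062, and BIRC5, survivin, with -2.95 ± 0.056. Their part in the changes of the markers was not tested.

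**Figure D5:**
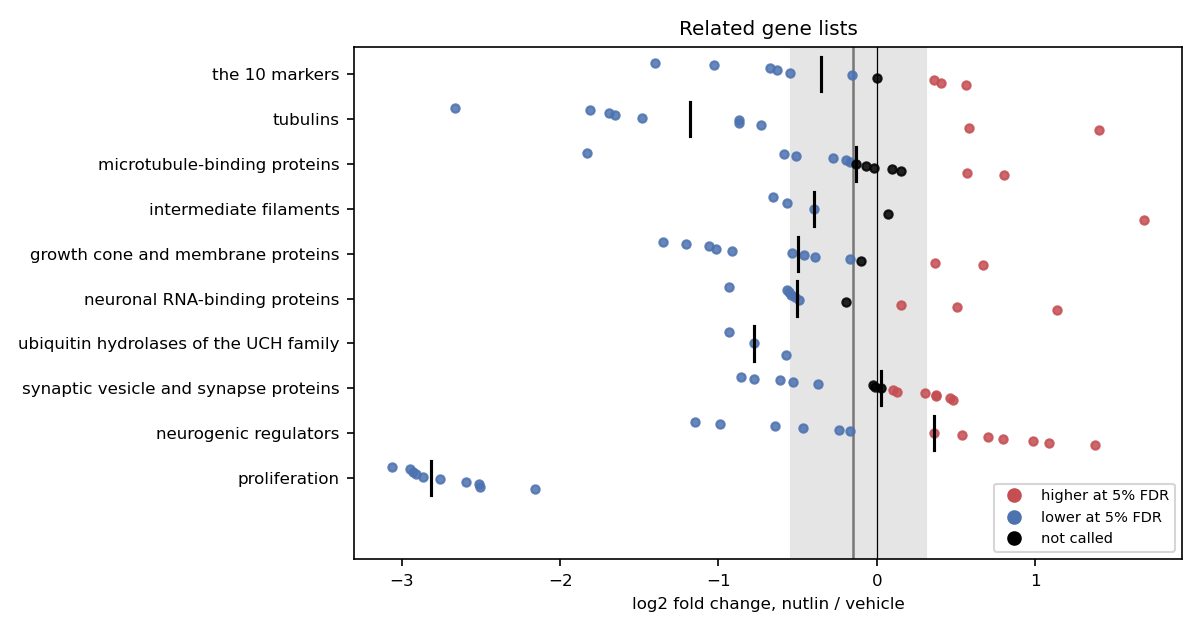
Each point is the LFC of 1 gene in the 10 markers and 9 lists, red where it rose, blue where it fell and black where it was not called, with a black bar for the median of the list. The grey band and line are the quartiles and median of the expressed mRNAs, and the proliferation genes, with a median of -2.81, lie furthest to the left.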

How the data were processed

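Poly(A) RNA of 20 samples of NGP cells, 10 with ethanol and 10 with nutlin-3, was sequenced by the authors as stranded read pairs. Per the labels and the study's methods, the authors quantified transcripts of GRCh38 (Ensembl release 85) with kallisto 0.42.4. The authors deposited estimated counts per transcript, which are not normalized, and TPM, which are those counts scaled by effective length and library size, along with effective lengths in bases. Groups and replicate numbers came from the labels.

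Estimated counts were summed per gene of GENCODE release 44 (96.05% of the transcripts matched, by identifier) and rounded. Genes typed protein_coding or lncRNA, if not at 0 in all samples of either condition (minimum total 1), entered the test with edgeR 4.0.16 in R 4.3.3 (quasi-likelihood F-test, TMM, condition only, Benjamini-Hochberg, 5% FDR). LFC errors are standard errors of the fit. CPM are TMM-scaled. Transcript counts were tested alike, and transcript usage with diffSpliceDGE of edgeR. Levels between genes were compared on TPM only, without a test. Alternatives were DESeq2 1.42.0, limma 3.58.1 (voom, and log2(TPM + 1) with a pseudocount of 1), other filters and scalings, a length offset, coding transcripts only, a replicate block, 1% FDR and each sample left out. Promoter windows are from RefSeq.

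The 10 markers and all lists were chosen with earlier results of these data known. Genes named beside the markers are MDM2, cell type markers (some of which are not reported here), genes overlapping a marker, the 3 mRNAs most like GAP43, and up to 2 genes that rose and 2 that fell most in each list, with a mean of at least 1 CPM. Other genes of a list that are named beside them (NEFH, TUBA1A, TUBB, TUBB4B, TUBB2A, TUBB2B, RBFOX2, ELAVL1, ELAVL3, BAP1 and MKI67) were chosen after their values were seen, as relatives of a marker or as a check.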

Additional observations from a re-analysis of the deposited data

Results flagged for a closer look

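In 5 of 82 groups of 10 samples, 1 sample lay far from the others of its condition by Dixon's ratio, of which chance gives about 1 in 20 groups, so 5 is near that number. GAP43 was at 159 CPM in vehicle replicate 10, against 137 CPM in the next sample and a median of 131 CPM over the others. STMN1 was also highest in that replicate, at 2150 CPM, with the next sample at 1879 CPM. Among nutlin samples STMN1 was highest in replicate 6, at 586 CPM against 523 CPM in the next. NES was at 449 CPM in nutlin replicate 4, against 406 CPM in the next. SYT1 was at 148 CPM in vehicle replicate 4, against 130 CPM in the next.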

How the results depend on the processing

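The calls of GAP43, TUBB3, MAP2, NEFL, NEFM, ELAVL4, RBFOX3 and UCHL1 kept their direction and their side of the threshold in all 11 other settings and with each of the 20 samples left out in turn. The call of DCX was lost with the filterByExpr filter (-0.08, adjusted p = 0.087), the length offset (-0.02) and TPM (-0.01), and its LFC was 0.0033 with coding transcripts only. STMN2 was called higher with coding transcripts only (0.16, adjusted p = 0.0022), it was -0.046 without nutlin replicates 4 and 6, and it lay between -0.013 and 0.031 with 1 sample left out, at -0.013 without vehicle replicate 8, -0.010 without vehicle replicate 9, -0.012 without nutlin replicate 4 and -0.011 without nutlin replicate 6. The median LFC of the expressed mRNAs moved from -0.15 to -0.03 with coding transcripts only and to -0.07 with filterByExpr. Relative to that median STMN2 was between 0.15 and 0.20 and DCX between -0.01 and 0.10 over the settings. Markers that fell by at least 2-fold were 1 in place of 2 with DESeq2, its size factors, filterByExpr, coding transcripts only, and the 16 samples whose number occurs in both conditions, with the replicate block or without it, and 1 to 2 with 1 sample left out (1 without vehicle replicate 5 and 1 without vehicle replicate 10), since TUBB3 was near -1. Markers that rose by at least 2-fold were 1 in place of 0 with the length offset, by RBFOX3 at 1.46. Samples with the same number did not deviate together (8 correlations from -0.10 to 0.14, and 1 of 8 vehicle samples was most like the nutlin sample of its own number). The labels do not say what a number marks, and these values cannot show that cultures of 1 number were handled apart. The block left 14276 SDE genes against 14992 without it in the same 16 samples. For intermediate filaments, 2 in place of 1 rose in the 4 other fits, by NEFH, and the counts of the other lists and of the described transcripts moved little. TPM rescaled to their fixed total over the matched transcripts alone were higher for every marker, such as 99.6 and 39.3 for GAP43. Leaving out the unmatched transcripts raises all genes of a sample by the same factor, so this could not change their order. That factor was larger in the nutlin samples, with UCHL1 going from 1789 to 1972 TPM in vehicle and from 1076 to 1249 TPM in nutlin samples. TPM of the 2 conditions therefore compare differently after rescaling. DCX was at 55.7 and 54.8 TPM (vehicle and nutlin) as deposited and at 61.3 and 63.6 TPM rescaled.

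Depth limits RBFOX3 most, with 18 to 66 counts in a sample. Transcript shares carry an error of read assignment that these values do not hold, and counts say nothing of protein or of neurites.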
